A study of Mus musculus with 8 samples.

Results

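Input is sonicated, cross-linked chromatin that is sequenced without an antibody step and serves as the control of a chromatin immunoprecipitation (ChIP-Seq) experiment. The input libraries described here are 4 of the 8 libraries of a study of menin, a subunit of MLL1 and MLL2 histone methyltransferase complexes, and they were taken by their labels as control input. They came from wild-type (wt, TC-1) and menin-null (3.2N, Men1-KO) mouse embryonic stem cells (mESCs), both on a 129S6/SvEvTac background, and from pancreatic islet-like endocrine cells (PILECs) differentiated in culture from each of the same 2 lines. The mESCs had been grown on a feeder layer of irradiated fibroblasts with leukemia inhibitory factor and were made feeder-free before use, each genotype is 1 line, and no group had a second culture per genotype, so wt and menin-null stand as the 2 libraries of each stage. Counts of 2 libraries against 2 measure the spread between those libraries, which also differ in genotype. Each input has a matching library from ChIP of trimethylated lysine 4 of histone H3 (H3K4me3), and the question was how the inputs of mESCs and PILECs differ at promoters, in gene bodies and over 200-kb stretches of the autosomes, and what this does to H3K4me3 enrichment.

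In background, sonication does not break chromatin evenly. Open, nucleosome-poor stretches such as active promoters shear more readily, and size selection then favours them, so input often carries a small excess of tags at transcription start sites (TSSs). Amplification and sequencing of Illumina libraries add a second unevenness, since fragments rich or poor in guanine and cytosine (GC) can be lost or favoured. Most mouse promoters lie in CpG islands, which are GC-rich, largely free of DNA methylation and usually marked by H3K4me3, so both kinds of unevenness fall on the same sites.

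The mESC inputs held 4248298 tags (wt) and 3744616 tags (menin-null), and the PILEC inputs held 19016697 and 18120807. Depth and stage therefore cannot be told apart in the precision of the counts, and the same is true of any sequencing run or library preparation that went with a stage. Values are given as RPM, the tags of a feature scaled to 1e6 tags of its library, and 4 values in a row stand for wt mESC, menin-null mESC, wt PILEC and menin-null PILEC input. Intervals cover the counting error of tags only and not the spread between cultures or libraries. Tags carry no molecular identifiers, so amplified copies count as separate tags. Across exons 3 to 8 of Men1 (mm9, chr19:6336725-6338961) the inputs held 17, 0, 22 and 0 tags, as their genotype labels say. The stage labels were set against H3K4me3 of known markers, beside 24.3% of all tested promoters with more H3K4me3 in mESCs and 8.51% with less. Of 20 tested promoters of ES cell markers, 18 had more H3K4me3 in mESCs and 0 had less, while 6 of 15 tested neural markers had less in mESCs and 1 had more. Of 8 promoters of islet hormones, 0 carried H3K4me3 of at least 8 RPM in both genotypes of either stage. Of the 20 promoters of islet transcription factors 11 were so marked in mESCs and 7 in PILECs. Of the 17 tested, 10 had more H3K4me3 in mESCs and 1 had less. For islet hormones, 2 of 6 tested had more in mESCs and 0 had less. These marks thus did not identify the PILECs as islet cells. The PILEC libraries were deposited under names with the letters EB, which the labels do not explain, and were taken here by their labels. For fibroblast markers, feeder cells included, 8 of 20 were so marked in mESCs and 7 in PILECs. Of the 16 tested, 4 had more H3K4me3 in mESCs and 5 had less.

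The promoters at both ends of the stage difference show the contrast in base composition. Shown are 200 bases just upstream of the annotated start (mm9, written 5′ to 3′ along the gene), with CpG dinucleotides in capitals. They belong to Jag2, a Notch ligand, and Samd1, a protein that binds unmethylated CpG-rich DNA, which had among the highest mESC input relative to PILEC input, and to the odorant receptor genes Olfr20 and Olfr1230, which had among the lowest. They were taken in order of the difference, passing over promoters whose 200 bases hold an annotated exon.
Jag2, chr12:114167707-114167906, minus strand: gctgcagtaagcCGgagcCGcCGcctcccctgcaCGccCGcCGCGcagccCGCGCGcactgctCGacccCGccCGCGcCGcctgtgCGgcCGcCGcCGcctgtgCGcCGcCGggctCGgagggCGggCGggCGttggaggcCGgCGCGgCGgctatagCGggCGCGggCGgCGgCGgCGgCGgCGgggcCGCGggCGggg
Samd1, chr8:86521371-86521570, plus strand: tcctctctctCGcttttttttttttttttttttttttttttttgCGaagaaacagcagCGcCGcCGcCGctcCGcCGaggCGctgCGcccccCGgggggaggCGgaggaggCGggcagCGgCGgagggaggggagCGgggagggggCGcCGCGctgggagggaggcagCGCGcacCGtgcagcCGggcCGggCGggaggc
Olfr20, chr11:73164141-73164340, plus strand: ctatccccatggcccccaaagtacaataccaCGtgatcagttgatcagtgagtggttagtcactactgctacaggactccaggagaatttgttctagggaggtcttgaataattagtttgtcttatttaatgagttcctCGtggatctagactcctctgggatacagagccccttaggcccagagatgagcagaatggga
Olfr1230, chr2:89137426-89137625, minus strand: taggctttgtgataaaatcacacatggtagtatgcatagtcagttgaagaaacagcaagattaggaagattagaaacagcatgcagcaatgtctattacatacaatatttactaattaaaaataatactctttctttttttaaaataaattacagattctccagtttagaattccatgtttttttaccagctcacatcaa
The Jag2 stretch is 86.5% GC with 42 CpGs and that of Samd1 is 69.5% with 25. The Olfr20 stretch is 46.5% GC with 2 CpGs, and the Olfr1230 stretch is 29.0% with 0.

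At CpG-rich TSSs input rose to a peak in mESCs and dipped in PILECs. The profile was drawn over 14555 autosomal starts with no other annotated start 1 to 10 kb away, in 3 classes by base composition within 500 bp. CpG-rich starts had a GC content of at least 55% and an observed-to-expected CpG ratio of at least 0.65, CpG-poor starts had a ratio under 0.4, and the rest were called intermediate. At the 5134 CpG-rich starts, mean input within 250 bp of the start was 2.01 and 1.63 RPM per kb in wt and menin-null mESCs against 0.545 and 0.552 at 4 to 5 kb away. In PILECs the same starts had 0.402 (wt) and 0.434 (menin-null) RPM per kb within 250 bp, below the 0.465 and 0.464 found 4 to 5 kb away. The mESC maxima, 2.27 and 1.78 RPM per kb, lay at 75 and 25 bp past the start. In both PILEC inputs the minimum within 1 kb, 0.362 and 0.399, lay at 25 bp past it, with a shoulder of 0.577 and 0.597 at 775 bp before it. At CpG-poor starts all 4 inputs rose, to 0.55, 0.524, 0.415 and 0.421 RPM per kb within 250 bp from 0.392, 0.387, 0.367 and 0.367 at 4 to 5 kb away.

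**Figure D1:**
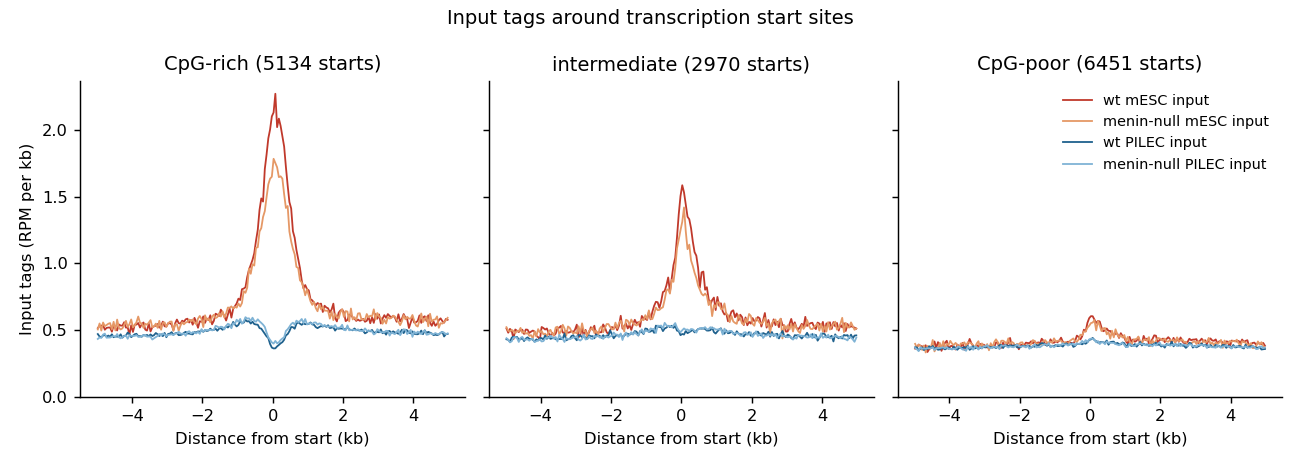
Mean input tags (RPM per kb, vertical axis) in 50-bp steps by distance from the start (kb, horizontal axis) for CpG-rich, intermediate and CpG-poor starts, 1 line per input library. At CpG-rich starts the mESC lines reach 2.27 and 1.78 RPM per kb and the PILEC lines fall to 0.362 and 0.399.

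The peak followed CpG content. Tags per base within 500 bp of the start, divided by those 5 to 10 kb away on both sides, came to 3.27 (95% exact interval 3.23 to 3.31), 2.72 (2.68 to 2.75), 0.967 (0.958 to 0.977) and 1.05 (1.04 to 1.06) at CpG-rich starts. At the 2970 intermediate starts the ratios were 2.30, 2.02, 1.14 and 1.19. At the 6451 CpG-poor starts they were 1.34, 1.30, 1.13 and 1.14, so that a small excess in the mESC inputs over the PILEC inputs was left there. Over all 14555 starts the ratio was 2.35 and 2.04 in mESCs and 1.07 and 1.12 in PILECs. The stages did not overlap in any class, and the wt mESC input stood above the menin-null one in each. H3K4me3 libraries of the same cells gave ratios of 77.5, 106, 77.2 and 69.9 at CpG-rich starts, far above any input.

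By annotation the difference lay in promoters and exons. Within 500 bp of any start fell 4.74%, 4.33%, 2.54% and 2.62% of input tags, where such stretches make up 1.76% of the genome used. Exons, first exons included, took 6.78%, 6.28%, 4.21% and 4.25% of tags and 3.13% of the genome. The log2 ratio of mESC over PILEC shares in exons was 0.69 (0.68 to 0.70) in wt and 0.56 (0.56 to 0.57) in menin-null cells, whereas in introns it was 0.07 in both. Between genes the mESC shares were lower, 49.2% and 49.7% against 53.8% in each PILEC input. On the X chromosome lay 1.97%, 2.03%, 2.43% and 2.44% of tags. An exact permutation test of 2 libraries against 2 cannot go below p = 0.33 (two-sided), and each of these shares gave that value.

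Input also followed base composition away from annotated starts, and did so differently in the stages. The autosomes were divided into 1-kb windows over 10 kb from any annotated start, which leaves the inner parts of long genes among them. In windows under 35% GC the inputs held 0.175, 0.187, 0.308 and 0.314 RPM per kb, so the mESC inputs were the lower. At 45 to 50% GC they held 0.538, 0.529, 0.461 and 0.457, and the stages had crossed. At 55 to 60% GC the mESC inputs reached 0.898 and 0.818 while the PILEC inputs had 0.409 and 0.407. Above that the PILEC inputs fell further, to 0.190 and 0.199 at 60 to 65% GC, against 0.667 and 0.555 in mESCs. The 2 genotypes of a stage lay close together over most of the range, and the stages differed by more than the genotypes in every one of the bands given.

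**Figure D2:**
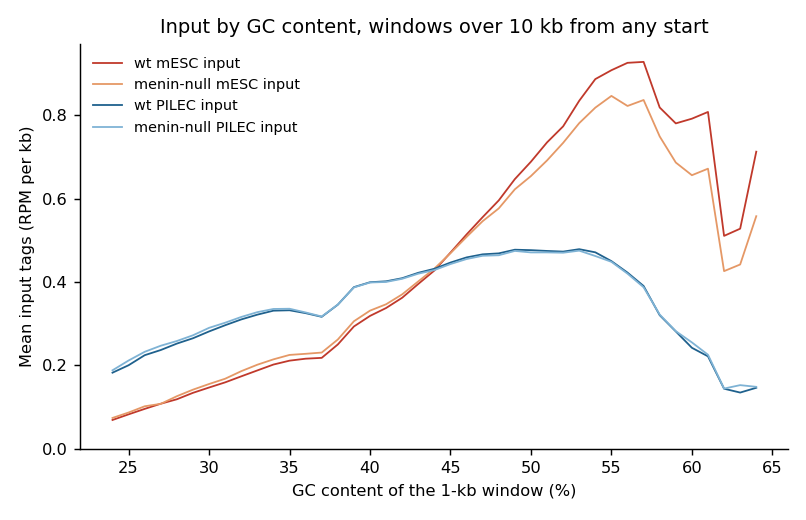
Mean input tags (RPM per kb, vertical axis) by GC content of 1-kb autosomal windows over 10 kb from any start (percent, horizontal axis), 1 line per input library. The mESC lines climb to 0.898 and 0.818 on average at 55 to 60% GC, while the PILEC lines stay between 0.457 and 0.475 on average from 45 to 55% and fall beyond. Windows beyond either end, few in number, were pooled with the end points.

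The same contrast ran through the 200-kb bins. Of 11837 bins tested with limma voom, 3365 (28.4%) had more input in mESCs and 5585 (47.2%) had less, with an adjusted p (Benjamini-Hochberg) not above 0.05. Of the bins called, 37.6% were higher in mESCs, and this share was 58.4% with scaling by tags far from genes and 50.3% with scaling by the median of ratios. Without the wt or the menin-null PILEC library 2231 and 2208 bins were higher. In the 10% of bins lowest in GC, at 34.3 to 37.2%, the median log2 difference of mESC over PILEC was -0.67, with 99.7% of bins called lower. In the 10% highest in GC, at 47.3 to 55.3%, it was 0.61, with 94.7% called higher. Across 11836 bins the log2 ratio correlated with GC content at a Pearson r of 0.89 in wt (Spearman 0.89) and 0.86 in menin-null cells (0.86), which is a description over bins that share the same libraries. Correlation with the number of gene starts in the bin was lower, at r = 0.56 and 0.55, and the bins richest in GC held a median of 5 starts against 0 in the poorest. After each bin was set against distal windows of the same GC content in the same library, 2619 bins (22.1%) were called higher and 2432 (20.5%) lower, and the median of the GC-richest 10% came to 0.17. The slope with GC content was thus smaller and of the same direction.

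At the ends of the range the bins came from few chromosomes. By a rule on the size of the difference, 4 of the 5 bins highest in mESCs lay on chromosome 8 and all 5 lowest lay on chromosome 11. The bin chr8:73200001-73400000 (mm9, 53.8% GC), which holds 13 gene starts, those of Jund, Rab3a and Pik3r2 among them, had 285, 314, 109 and 108 RPM, a log2 difference of 1.47 (SE 0.06). The bin chr11:38400001-38600000 (36.2% GC), with 0 gene starts, had 36.2, 32.6, 89.8 and 92.0 RPM, a difference of -1.40 (SE 0.08). Both kept their direction relative to GC content, with log2 differences of 0.65 and -0.89 (limma adjusted p = 0.00271 and 0.00177). The highest bin of all, chr17:39800001-40000000 (38.3% GC), had 0 starts of the gene types used and 666, 444, 185 and 188 RPM. Most of its tags lay in 6 kb (chr17:39980001-39986000, 64.05% GC), where the inputs had 630, 413, 148 and 152 RPM.

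Chromosomes 8 and 11 stood apart as wholes. Set against GC content and scaled so that the median autosome was 1, chromosome 8 had 1.28, 1.48, 1.13 and 1.15, and chromosome 11 had 1.14, 1.12, 1.44 and 1.39. The log2 ratio of mESC over PILEC on chromosome 8 was 0.18 (0.18 to 0.19) in wt and 0.36 (0.36 to 0.37) in menin-null cells, and on chromosome 11 it was -0.34 (-0.34 to -0.33) and -0.30 (-0.31 to -0.30). On each of the other 17 autosomes the ratio lay between -0.10 and 0.09 in both genotypes. Whether the cells differed in chromosome number was not tested.

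**Figure D3:**
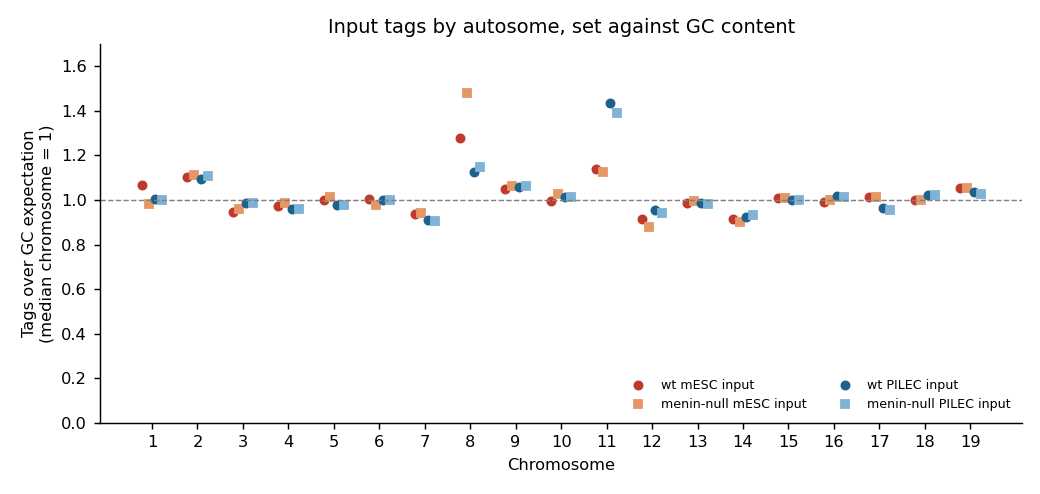
Input tags of each autosome over those of distal windows of the same GC content, scaled so that the median autosome of a library is 1 (vertical axis), with 1 point per library. Chromosome 8 is highest in the menin-null mESC input (1.48) and chromosome 11 in the wt PILEC input (1.44).

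At promoters, taken as 1 kb on either side of 1 start per gene, 9680 of 19546 tested (49.5%) had more input in mESCs and 22 (0.113%) had less. The median log2 difference over all tested promoters was 0.98. The other 5541 of 25087 autosomal promoters held a mean of under 10 tags per library and were not tested, and 5090 promoters share bases with a neighbouring window. The count did not hold without the wt mESC library, where 0 and 0 were called (limma, 7425 at an unadjusted p under 0.05), nor with all inputs thinned to the depth of the smallest, again 0 and 0 (4771 unadjusted). The median log2 difference was 0.94 and 0.93 in these fits, and in the former the lone mESC library was assumed to vary like the PILEC libraries. Every fit without 1 library makes the same assumption about the library left alone in its stage, so its counts carry that limit. Without the menin-null mESC library 5980 were higher and 163 lower. Scaling by the median of promoter ratios, which sets the median difference near 0, left 1136 higher and 45 lower. The share called rose with CpG content, from 19.7% of 5666 CpG-poor promoters (median difference 0.46) through 43.3% of 5215 intermediate ones (0.90) to 72.8% of 8665 CpG-rich ones (1.31). Gene bodies from 2 kb past the start moved less, with 6720 of 18024 (37.3%) higher and 1613 (8.95%) lower in mESCs and a median of 0.24. Of the gene bodies called, 80.6% were higher in mESCs, a share that became 93.4% with scaling by tags far from genes and 53.1% with scaling by the median of ratios. Without the wt mESC library 1017 gene bodies were lower.

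The promoters with the largest excess in mESCs were among the richest in GC. The 10 leading ones had a GC content of 69.3 to 81.2%, between 10 and 37 tags in each mESC input and between 3 and 14 in each of the much deeper PILEC inputs. Nfix, which encodes a nuclear factor I transcription factor, had 20, 23, 6 and 9 tags, or 4.71, 6.14, 0.316 and 0.497 RPM. The mESC values stood well above both PILEC values, with a log2 difference of 3.70 (SE 0.46, limma adjusted p = 5.78e-09). The promoter of Jag2 had 5.65, 4.27, 0.421 and 0.386 RPM (log2 difference 3.57, SE 0.46). That of Samd1 had 4.94, 2.94, 0.158 and 0.552 RPM, with a difference of 3.67 (SE 0.62). Nfix and Samd1, 2 of these 10, lie on chromosome 8, as do Jund and Klf2 named below. That chromosome as a whole had more mESC input (log2 ratio 0.18 and 0.36, set against GC content). Olfr20, Ubb, Hoxb2 and Rbfox3, named below, lie on chromosome 11, which had less by the same measure (-0.34 and -0.30). Pou3f1, a POU-domain transcription factor, had 6.59, 5.07, 0.578 and 0.773 RPM, and Gpr27, an orphan receptor, had 8.71, 3.47, 0.631 and 0.607. These promoters were chosen for the size of this difference, so the gap between the stages at each of them is a description. All 10 carried H3K4me3 in both stages, as did 1280 of the 1338 tested promoters of at least 70% GC.

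Promoters with less input in mESCs were few and rested on few tags. The 10 leading ones had a GC content of 33.9 to 45.4% and 0 to 2 tags in each mESC input, against 15 to 31 in each PILEC input. Such promoters passed the filter on mean tags only through their PILEC counts, and these were chosen for the size of this difference. The folds given for them are therefore a description. Olfr20 had 0, 0, 17 and 31 tags, which makes its input at least 3.44-fold lower in mESCs when 3 tags over both mESC libraries are taken as the floor. At Olfr1230 the counts were 1, 0, 23 and 22, a ratio of 9.69-fold lower (1.65 to 391). Slco1c1, a thyroid hormone transporter, had 0, 1, 22 and 21 tags, 9.25-fold lower (1.57 to 374). The ratios of Olfr1230, Slco1c1 and Sfpq use mESC counts under that floor as they are, so they do not rank above the bound for Olfr20. Sfpq, a splicing factor, was the 1 promoter of the 10 with H3K4me3 in both stages, and it had 2, 0, 28 and 24 tags, 5.60-fold lower (1.47 to 47.4), although at its annotated 5′ end, a different start, the log2 difference was 1.87.

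Gene groups are read against the background of 49.5% called higher and 0.113% lower over all promoters tested. Of the housekeeping list, all 20 were tested, 15 were higher in mESCs and 0 lower, with a median log2 difference of 1.25 and a median GC content of 58.8%. Eef2, the elongation factor of translation, had 4.71, 4.01, 0.631 and 0.773 RPM (log2 difference 2.64, SE 0.35), and Ywhaz, a 14-3-3 protein, had 4.24, 3.47, 0.736 and 0.717. Immediate early genes gave 12 higher of 16 tested and a median of 1.23, with Jund at 4.71, 5.34, 0.526 and 1.99 RPM and the phosphatase gene Dusp1 at 3.30, 4.81, 0.947 and 0.828. Cytosolic ribosomal protein genes gave 38 of 76 and a median of 0.97, both near the background. Rps10 and Rpl24, the most different of them, had log2 differences of 1.95 (SE 0.37) and 1.94 (SE 0.32). Hox promoters, 36 tested, gave 15 higher and a median of 0.94, with Hoxc13 at 2.16 (SE 0.41) and Hoxd1 at 2.01 (SE 0.38).

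Members at the low end of these and the cell type lists were not called. Ubb, a ubiquitin gene, had 0.942, 1.87, 1.47 and 1.55 RPM (log2 difference -0.13, SE 0.60), and Rps23 had 0.235, 0.534, 1.16 and 1.16 RPM (-1.29, SE 0.97, limma adjusted p = 0.281). The ES cell gene Tdgf1, an Egf-family co-receptor with a promoter of 45.7% GC, had 0.706, 2.40, 1.26 and 1.16 RPM (0.12, SE 0.62). Hoxb2, at 0.471, 0.801, 1.58 and 0.993 RPM, had a difference of -0.80 (SE 0.99).

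Median differences of receptor and histone genes lay below the 0.98 of all tested promoters. Odorant receptor promoters, with a median GC content of 39.2%, gave 11 higher and 6 lower of 249 tested, and their median log2 difference was -0.0048. Olfr94, at 49.1% GC, was among those higher, with 3.06, 2.94, 1.10 and 0.828 RPM (log2 difference 1.66, SE 0.35). The filter left out 832 of the 1081 members. Summed over all members, odorant receptor promoters held 679, 684, 795 and 790 RPM, the mESC sums below the PILEC ones. Vomeronasal receptors, 318 names of which 22 promoters were tested, gave 1 higher and 0 lower and a median of 0.04. Over all their members the sums were 116, 124, 145 and 147 RPM, again lower in the mESC inputs. Replication-dependent histone genes gave 3 higher and 0 lower of 40 tested, with 27 left out for few tags, and a median of 0.47. Their near-identical copies limit unique alignment, so these counts are uncertain.

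Lists of cell type markers are set against the same background of 49.5% higher and a median of 0.98. ES cell markers gave 12 higher of 20 tested (median log2 difference 1.30), islet transcription factors 11 of 17 (1.26), neural markers 9 of 15 (1.29), fibroblast markers 5 of 16 (0.76) and islet hormones 1 of 6 (0.40), and 0 in each list were lower. The shares called, 60%, 64.7%, 60%, 31.2% and 16.7%, are of few promoters each. Sox2 and Klf2, pluripotency factors, had 4.47, 3.20, 0.789 and 0.773 RPM and 3.77, 5.07, 0.841 and 0.938 RPM. The endocrine transcription factor gene Insm1, at 73.4% GC, had 2.12, 2.40, 0.316 and 0.993 RPM, a log2 difference of 2.03 (SE 0.48). The neural genes Ncam1 and Rbfox3 had differences of 1.98 (SE 0.42) and 1.72 (SE 0.32), and the fibroblast gene Pdgfra 1.64 (SE 0.40). Ins2, which encodes insulin, was the hormone promoter called, with 7, 12, 8 and 13 tags (log2 difference 2.03, SE 0.46), but at its annotated 5′ end the difference was -0.96. Promoter openness was not measured, and depth, any library preparation and the dependence of input on GC content also went with stage. These cannot be told apart here, nor can fewer cells with an open promoter and a less open promoter in each cell.

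To separate base composition from position, promoter tags were set against those of distal windows of the same GC content in the same library. Tested this way, 200 promoters (1.02%) were higher in mESCs and 1 (0.00512%) was lower, and the median log2 difference fell from 0.98 to 0.20. Of the 200, 57 lay on chromosome 8, where 5.22% of 1091 tested promoters were called, and 1 on chromosome 11. Of the 10 leading promoters above, Ica1l, a homologue of an islet autoantigen, was the 1 still called, with a log2 difference of 2.49 (limma adjusted p = 0.011) from 4.24, 2.67, 0.263 and 0.497 RPM. Differences at Sox2, Insm1 and Rbfox3 came to 0.62, -0.09 and -0.06, none of them called. Rbfox3 lies on chromosome 11, where the median GC-relative difference of tested promoters was -0.15. Eef2 kept a difference of 1.73 (limma adjusted p = 0.00606) and was the 1 member called among the 12 gene lists. The median GC-relative difference was 0.33 for ES cell markers, -0.03 for islet transcription factors and 0.04 for neural markers, beside 0.20 over all promoters, with 0 called in each of the 3 lists. The GC-rich distal windows were not free of H3K4me3. At 60 to 65% GC they held 2.38, 2.60, 1.29 and 1.20 RPM per kb in the H3K4me3 libraries (wt and menin-null mESC, then wt and menin-null PILEC), so the expectation for CpG-rich promoters includes marked sites. This GC curve covers windows up to 64% GC, and 6.39% of the 1-kb stretches of promoters lie above it and were given its last value.

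In sums over promoters, those with H3K4me3 held more input than distal windows of the same GC content in both stages. A promoter was called marked in a stage when it had at least 8 RPM of H3K4me3 in both genotypes, and unmarked when it had under 2 RPM in both. At the 11677 promoters marked in both stages, input was 1.84, 1.81, 1.48 and 1.56 times that of distal windows of the same GC content. At the 9064 promoters marked in neither it was 0.996, 0.996, 0.965 and 0.961 times. The 2 classes averaged 61.8% and 45.3% GC, and over all promoters this ratio also rose with GC content. It was 0.993, 1.01, 0.959 and 0.963 under 40% GC and 1.78, 1.75, 1.45 and 1.52 at 60 to 65%. Mark and GC content were not separated. Over 1 kb on either side of the start, at all CpG-rich promoters, the PILEC inputs held 1.50 and 1.57 times the GC expectation, against 1.88 and 1.85 in mESCs. No such value was made for the PILEC dip within 250 bp of the start.

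Relative to GC content, promoters marked in mESCs only had a larger stage difference than those marked in both. The 246 promoters marked in mESCs and not in PILECs had 1.73 (95% exact interval 1.66 to 1.80), 1.66 (1.59 to 1.74), 1.20 (1.16 to 1.23) and 1.16 (1.13 to 1.20) times the GC expectation. Their GC-relative log2 ratio of mESC over PILEC was 0.53 (0.46 to 0.60) in wt and 0.52 (0.44 to 0.59) in menin-null cells. This was above the 0.32 (0.31 to 0.33) and 0.22 (0.20 to 0.23) of promoters marked in both. In RPM the classes lay closer, at 1.39 (1.32 to 1.46) and 1.25 (1.18 to 1.33) against 1.31 (1.30 to 1.32) and 1.06 (1.05 to 1.07). The 24 promoters marked only in PILECs had 1.06 (0.879 to 1.28), 1.14 (0.928 to 1.37), 1.20 (1.09 to 1.31) and 1.28 (1.17 to 1.40) times. Their GC-relative log2 ratio was -0.17 in both genotypes, with intervals of -0.48 to 0.12 and -0.49 to 0.13 that include 0, so a difference between stages was not detectable at this depth. The classes were taken from H3K4me3 libraries and the tags from inputs of the same cells.

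**Figure D4:**
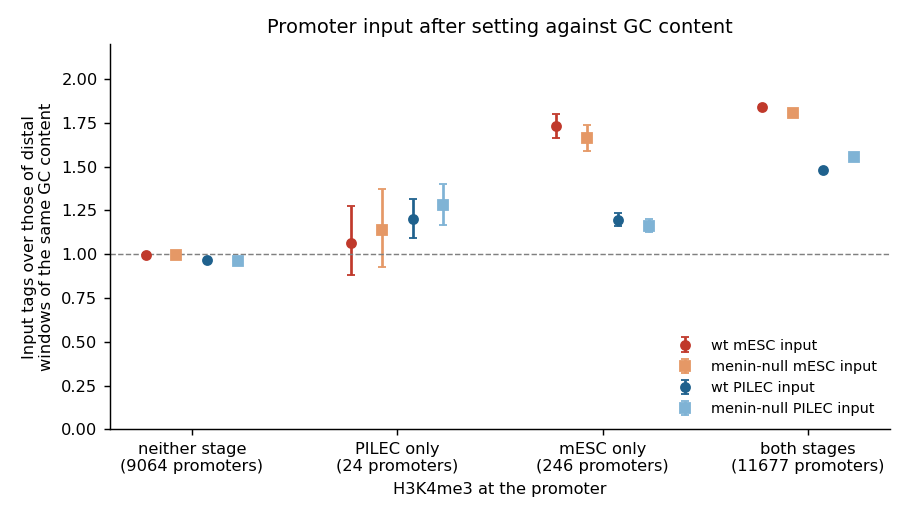
Input tags of promoters over those of distal windows of the same GC content (vertical axis, dashed line at 1) by H3K4me3 class of the promoter, with 1 point per input library and bars for 95% exact Poisson intervals of the counts. Promoters marked in neither stage sit at 0.961 to 0.996, and those marked in mESCs only are higher in the mESC inputs (1.73 and 1.66) than in the PILEC inputs (1.20 and 1.16).

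The choice of input changed how enriched H3K4me3 appeared. At promoters marked in both stages, the median ratio of H3K4me3 to the input of the same cells, with 0.5 RPM added to each, was 11.8 and 15.6 in mESCs (wt and menin-null) and 23.9 and 21.5 in PILECs. With the input of the other stage of the same genotype the ratios became 22.7, 26.1, 12.2 and 12.6, and the order of the stages turned. Counts at a threshold of 10 times moved alike. Of 25087 promoters, 7487, 9329, 11348 and 10921 passed over their own input and 11308, 11464, 7867 and 7974 over the other. At 4 times the change was smaller, from 12565, 12940, 13068 and 12870 to 13983, 13886, 12061 and 12045.

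The stage difference of H3K4me3 at single promoters turned with the input as well. The H3K4me3 libraries held 2432377 (wt) and 3517028 (menin-null) tags in mESCs, against 18773635 and 17682677 in PILECs. Depth thus went with stage here too. Tags at a repeated position made up 11.4%, 4.17%, 11.5% and 11.4% of them. Without input, 4745 of 19546 promoters (24.3%) had more H3K4me3 in mESCs and 1663 (8.51%) had less, with a median log2 difference of 0.16. Of those called, 74.0% were higher, and 89.2% with scaling by tags far from genes. With 1 tag per position and strand, 6125 were higher and 1432 lower, with a median of 0.29. Leaving out 1 H3K4me3 library left 3153 and 571 (wt mESC), 697 and 79 (menin-null mESC), 3051 and 619 (wt PILEC) or 2365 and 708 (menin-null PILEC). In a fit over all 8 libraries, where the input difference is subtracted, 718 (3.67%) were higher and 5529 (28.3%) were lower in mESCs, with a median of -0.82. These counts became 628 and 4469 with 1 tag per position and strand, with a median of -0.72. Leaving out 1 input left 378 and 2332 (wt mESC), 442 and 4202 (menin-null mESC), 465 and 3034 (wt PILEC) or 497 and 3668 (menin-null PILEC). Of the 4745 promoters higher without input, 693 were also higher with it, 514 were lower and 3538 were not called. Of those lower without input, 1320 were lower with it and 0 were higher. The starts had been picked by unscaled tags of these H3K4me3 libraries, most of them from the deeper PILEC libraries. Starts marked in PILECs therefore weighed more, and these counts are a description.

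**Figure D5:**
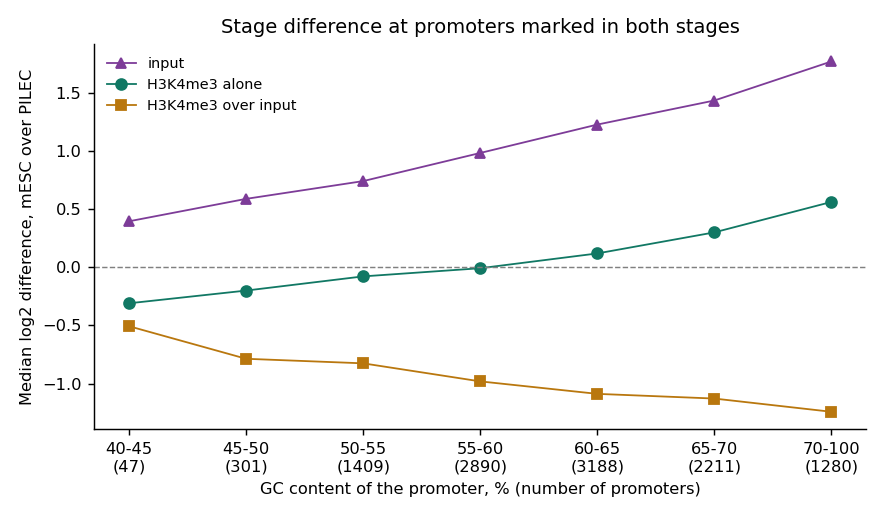
Median log2 difference of mESC over PILEC (vertical axis) at promoters marked by H3K4me3 in both stages, by GC content of the promoter (percent, horizontal axis, number of promoters below), for input, H3K4me3 alone and H3K4me3 over input. At 70% GC or more the medians are 1.77, 0.56 and -1.24.

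The shift between the 2 fits grew with GC content, as the input difference did, since the second fit subtracts that difference. At the 301 promoters of 45 to 50% GC marked in both stages, the median stage difference was 0.59 in input, -0.20 in H3K4me3 alone and -0.79 in H3K4me3 over input. At the 1280 of 70% GC or more it was 1.77, 0.56 and -1.24. Distal windows of 55 to 60% GC held 0.882, 0.866, 0.532 and 0.544 RPM per kb in the H3K4me3 libraries, and those under 35% held 0.125, 0.0810, 0.126 and 0.129. The mESC libraries were thus above the PILEC ones at high GC content in H3K4me3 as in input, and how much of this was H3K4me3 was not tested.

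Single genes are given with both fits. Pou5f1, which encodes Oct4, had 55.9, 78.5, 3.68 and 2.43 RPM of H3K4me3 and 3.30, 3.47, 1.10 and 0.773 RPM of input, and its log2 difference of 4.47 (SE 0.27) without input was 2.58 (SE 0.47) with it. It was called higher in mESCs both ways. For Actb, beta-actin, H3K4me3 was 74.8, 85.0, 81.1 and 87.3 RPM, with a difference of -0.07 (SE 0.20) without input and -1.14 (SE 0.47, limma adjusted p = 0.0573) with it. Jag2, Nfix and Samd1 were named for the largest input differences, so a large shift on subtracting input was bound to follow. Jag2 was higher in mESCs by 1.83 (SE 0.21) without input and lower by -1.75 (SE 0.50) with it, and both passed the test. Nfix and Samd1 turned in the same way, from 1.40 and 1.85 to -2.32 and -1.78. At Men1 itself the input promoter difference was 1.07 (SE 0.37) and H3K4me3 went from -0.45 (SE 0.23) without input to -1.54 (SE 0.46) with it, past the test in the latter. Mest, an imprinted gene, had 1.88, 1.60, 1.21 and 1.27 RPM of input (log2 difference 0.57, SE 0.48, limma adjusted p = 0.336). Its H3K4me3 was 23.8, 2.27, 34.1 and 31.6 RPM, so the 2 mESC libraries were unlike. The H3K4me3 difference was -2.31 (SE 0.41) without input and -2.85 (SE 0.76) with it. These differences average over the unlike mESC libraries. Their SEs draw on the variance of all promoters, so they understate the gap between those 2 libraries. Meg3, the imprinted non-coding RNA, had 3, 2, 14 and 17 input tags and was left out of the test for few tags.

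A few stretches held very many tags in every input. The 121 windows of 1 kb with at least 20 times the median input took 0.917%, 0.836%, 0.850% and 0.949% of tags. The 6 kb at chr2:98502001-98508000, which hold Gm10800 and Gm10801, had 5852, 5469, 5810 and 6610 RPM of input and 3950, 2556, 4233 and 2889 RPM in the H3K4me3 libraries. In this GC-poor stretch (36.5%) the wt inputs of the 2 stages differed by a log2 ratio of 0.01 (-0.01 to 0.03), and the menin-null inputs by -0.27 (-0.29 to -0.25). The 15 promoters with a mean input per kb of at least 20 times this median, over 1 kb on either side of the start, were left out of the sums over classes.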

How the data were processed

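Per the labels, input and H3K4me3 ChIP DNA was sonicated to about 250 bp, size-selected and sequenced. The authors aligned reads of 36 bases to mm9, kept unique alignments with at most 2 mismatches, and deposited 1 line per tag. In the input files 1.04 to 1.81% of tags carried more than 2 mismatches, and these were kept. The aligner is not given in the sources used here. Each line carries a mapping score between 4 and 119 in the deposited files, which was not used to filter, and a column of tag positions (genomic coordinates) from which all counts were made. Tags were moved 125 bp towards the fragment centre. Genes were the protein-coding, long intergenic non-coding RNA and processed-transcript genes of the GENCODE M1 annotation of mm9. Starts of other gene types were not counted as annotated starts. For a gene with several starts, the one with the most H3K4me3 tags within 1 kb was used. These tags were summed unscaled over all H3K4me3 libraries, so the deeper PILEC libraries weighed more. Counts of promoters (1 kb on either side of 1 start per gene), gene bodies and 200-kb bins were tested with limma 3.58.1 (voom, R 4.3.3) over all features with a mean of at least 10 tags (100 for bins), mESC against PILEC, adjusted by Benjamini-Hochberg. Shares carry Clopper-Pearson intervals, ratios exact conditional binomial ones. GC expectations came from 1-kb autosomal windows over 10 kb from any start, without the 121 hot windows. For promoters and bins this, scaling of each chromosome by its own tags and a check on mismatches were chosen after the data were seen, as were some repeats of the H3K4me3 fit. Named genes were Men1, Meg3, Mest, Pou5f1 and Actb, the ends of each gene list, the 10 promoters and 5 bins with the largest difference each way, and the promoters highest in input. A gene from the marker lists is not reported here. Members and lists were chosen with earlier results of these data known. Wt and menin-null samples of the 2 stages come from the same 2 lines, so genotype pairs them, and the deviations of wt from menin-null correlated between stages at r = 0.15 over bins and 6.3e-05 over promoters. The model was tested on simulated data.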

Additional observations from a re-analysis of the deposited data

Results flagged for a closer look

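Chromosome 1 moved in opposite directions in the 2 genotypes. Relative to GC content, its log2 ratio of mESC over PILEC input was 0.087 (0.081 to 0.092) in wt and -0.026 (-0.032 to -0.020) in menin-null cells. Chromosomes 6 (0.009 in wt and -0.032 in menin-null cells) and 10 (-0.025 and 0.019) also had opposite signs. So did chromosomes 9 (-0.0099 and 0.0025) and 13 (-0.0058 and 0.019), where the interval of 1 genotype included 0. The genotypes lay furthest apart on chromosome 8 (0.18 and 0.36). The signs depend on scaling to the median autosome, and these differences were not tested over replicates. Tags on the mitochondrial genome, outside all comparisons above, took 0.0812% of the wt mESC input, 0.0993% of the menin-null mESC input, 0.107% of the wt PILEC input and 0.162% of the menin-null PILEC input, each far above 3 tags.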

How the results depend on the processing

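The count of promoters with more input in mESCs depended on the setting. From 9680 promoters higher and 22 lower, the counts went to 0 and 0 with inputs thinned to the smallest library (limma, 4771 at an unadjusted p under 0.05), to 1136 and 45 with scaling by the median of ratios, to 1210 and 5 (of 2186 tested) within 500 bp of the start and to 5717 and 7 relative to input 5 to 50 kb away. Relative to distal windows of the same GC content, chosen after seeing the data, they were 200 and 1, and with 500-bp windows 311 and 4. Those lower numbered 12 with 1 tag per position, 9 with scaling by tags far from genes, 43 with limma's trend on log2(RPM + 0.5) and 46 without a filter on low counts. Leaving out 1 library gave 0 to 8880 higher and 0 to 163 lower. Scaling moved the median promoter difference from 0.98 to 0.03 (median of ratios) or 1.19 (tags far from genes). At the annotated 5′ end of the gene, 9157 of 19314 tested were higher and 16 lower, with a median of 0.95.

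Gene bodies, at 6720 and 1613, gave 3576 and 916 when thinned, 3951 and 3495 with the median of ratios, 680 lower with tags far from genes, and 4628 to 5719 and 1017 to 1283 without 1 library. Bins gave 5061 and 3603 with tags far from genes, 2432 lower relative to GC content, and 2208 to 3569 and 4274 to 5697 without 1 library. H3K4me3 alone gave 528 lower with tags far from genes, and 697 to 3153 and 79 to 708 without 1 library. H3K4me3 over input gave 3515 lower with tags far from genes, and 378 to 726 and 2332 to 6178 without 1 library. With genotype as a replicate block the counts were 11199 and 18 for promoters, 6812 and 1552 for gene bodies, 3380 and 5565 for bins, 4417 and 1514 for H3K4me3 alone, and 727 and 5544 over input, none changed by over 1.5 times.

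The log2 ratio of TSS shares, 0.62 within 1 kb, was 0.81 within 500 bp and 0.49 within 2 kb. That of TSS over flanks, 1.01, was 1.20 within 250 bp and 0.69 within 1 kb. At 10 times in place of 4, a mean of 8408 promoters passed in mESCs over their own input and 7920.5 in PILECs over the other. Input differences of single promoters turned relative to GC content at Mest (-0.35, and -0.22 with 500-bp windows), Actb (-0.31, -0.47), Insm1 (-0.091, -0.25) and Rbfox3 (-0.064, -0.24). At the annotated 5′ end they turned at Mest (-0.75), Sfpq (1.87) and Ins2 (-0.96), and with the median of ratios at Mest (-0.38). The cause was not tested. The mESC inputs, with a median of 8 and 6 tags per promoter, limit what single promoters can show.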
